A study of Bos taurus with 4 samples.

Results

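RAB38, IGSF11, USP50 and HMCN1 were followed in granulosa cell RNA as 4 genes whose ratio of poor-donor over good-donor signal was above 0 on all 4 arrays of the series. Each was measured by 1 probe, so the set holds 4 of the 43794 probes on the array and 4 of the 10976 named genes that could be tested. The genes were selected on these measured ratios, so their ratios and levels are given as a description and no test of them is made. A ratio above 0 on all 4 arrays was found for 1430 of 26181 tested probes, or 5.46%. A narrower choice, with an unadjusted p under 0.05 and at least a 1.5-fold difference besides the common sign, held 6 named genes (0.0547%), or 9 probes (0.0344%), and the 4 genes are among these 6. Both limits use the ratios the genes were selected on, so this describes the choice and tests nothing.

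The samples were granulosa cells, which surround and nourish the oocyte inside the ovarian follicle, from Holstein cows of a commercial embryo production facility (94 cows in the design text), collected after ovarian stimulation and coasting. Poor donors were cows whose oocytes were mostly rated incompetent for development, and good donors cows whose oocytes were mostly competent. Array 1 set poor-donor pool 5 against good-donor pool 1, array 2 pool 6 against pool 2, array 3 pool 7 against pool 3 and array 4 pool 8 against pool 4. Poor-donor pools were labelled with Cy3 on arrays 1 and 2 and with Cy5 on arrays 3 and 4, and RNA was amplified over 2 rounds before labelling. The labels do not say which or how many cows entered a pool, and all groups share the breed and the stimulation. Pools were taken as replicates, and the spread between them may be partly technical.

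The 4 genes act in different compartments of the cell. RAB38 is a small GTPase that, with its close relative RAB32, directs membrane cargo to lysosome-related organelles such as melanosomes, and the complex of HPS1 and HPS4 loads it with GTP. USP50 belongs to the ubiquitin-specific proteases, most of which remove ubiquitin from proteins, and in human its protein is annotated as catalytically inactive. IGSF11 is an adhesion molecule of the immunoglobulin superfamily and, in human, a ligand of the immune receptor VISTA. HMCN1 encodes hemicentin 1, a very large protein of the extracellular matrix, related to the fibulins and found along basement membranes.

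In limma the adjusted threshold of 0.05 was passed by 0 of the 26181 tested probes (0%) and by 0 of 10976 named genes, while 1560 probes had an unadjusted p under 0.05. With a difference of at least 1.5-fold as well, 13 of the tested probes were higher in poor donors (0.0497%) and 72 lower (0.275%). Granulosa markers such as FSHR and CYP19A1 were tested for 16 of 16 genes, with 15 above background in all 8 pools. The exception was FOXL2, above background in 3 poor-donor and 4 good-donor pools, at mean log2 levels of 6.61 and 6.72. Mean levels of this list were 11.16 to 11.62 on the log2 scale in poor-donor pools and 11.28 to 11.50 in good-donor pools. By gene, 3 of the 16 had a mean ratio above 0, and 3 had an unadjusted p under 0.05, all lower in poor donors by mean ratio, namely INHA, NR5A2 and WT1 (6.97% of all named genes had such a p in either direction). INHA was at -1.79, -1.70, 0.40 and 0.68 on arrays 1 to 4, so its sign differed between the array pairs. The mean ratio of the list was -0.35, -0.16, -0.15 and 0.35 on arrays 1 to 4. In pooled tissue a lower share of cells of one type and less RNA per cell cannot be told apart. Median probe intensities were 49 to 164 in poor-donor pools and 57 to 123.5 in good-donor pools, with the lower values of each in Cy5.

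RAB38 had ratios of 0.72, 0.99, 1.37 and 0.65 (log2, poor over good) on arrays 1 to 4, averaging 0.93 ± 0.33 (SD, n = 4), a 1.91-fold difference. Its normalized log2 levels were 10.56, 11.08, 9.22 and 10.36 in poor-donor pools 5 to 8, against 9.85, 10.09, 7.85 and 9.71 in good-donor pools 1 to 4. The poor-donor pool was the higher one on every array, but the groups overlapped across arrays. Poor-donor pool 7 lay below good-donor pools 1, 2 and 4, while the other 3 poor-donor pools lay above every good-donor pool. Both pools of array 3 were low, and the array means of the pair were 10.20, 10.58, 8.54 and 10.04 on arrays 1 to 4. The poor-donor and the good-donor pools had the same order over the arrays, which 4.81% of the tested probes shared. The SD of the RAB38 level was 0.78 over poor-donor pools and 1.03 over good-donor pools, about as large as the mean difference between the groups. These exceeded the SDs of 99.0% and 99.6% of the tested probes, whose medians were 0.14 in each group.

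IGSF11 was the gene of the 4 with the most similar ratios across arrays, at 1.07, 0.59, 0.71 and 0.82, with a mean of 0.80 ± 0.21 (log2, SD, n = 4) or 1.74-fold. Its levels were 8.11, 8.05, 8.00 and 7.62 in poor-donor pools 5 to 8, against 7.04, 7.46, 7.29 and 6.80 in good-donor pools 1 to 4. The groups did not overlap, and the lowest poor-donor pool stood 0.17 above the highest good-donor pool on the log2 scale. Such a gap was found for 291 tested probes, or 1.11%, and HMCN1 had it as well. Poor-donor pool 8 was the lowest of its group and good-donor pool 4, on the same array, the lowest of all.

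USP50 had ratios of 0.13 and 0.32 on arrays 1 and 2 and of 1.25 and 1.60 on arrays 3 and 4, with a mean of 0.83 ± 0.71 (log2, SD, n = 4) or 1.77-fold. Its levels were 7.94, 8.34, 9.10 and 9.43 in poor-donor pools 5 to 8, against 7.81, 8.02, 7.85 and 7.83 in good-donor pools 1 to 4. The good-donor pools were close together, with an SD of 0.09, while the poor-donor pools had an SD of 0.68. Poor-donor pools 7 and 8 were high, pool 6 was intermediate and pool 5 fell within the good-donor range, below pool 2.

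HMCN1 followed a pattern like that of USP50, with ratios of 0.11 and 0.29 on arrays 1 and 2 and of 1.10 and 1.02 on arrays 3 and 4, and a mean of 0.63 ± 0.50 (log2, SD, n = 4) or 1.55-fold. Its levels were 7.66, 7.63, 8.24 and 8.46 in poor-donor pools 5 to 8, against 7.55, 7.34, 7.14 and 7.44 in good-donor pools 1 to 4. Poor-donor pools 7 and 8 were again the high ones. The groups did not overlap, but poor-donor pools 5 and 6 were near the good-donor pools, and the lowest poor-donor pool stood only 0.08 above the highest good-donor pool.

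**Figure D1:**
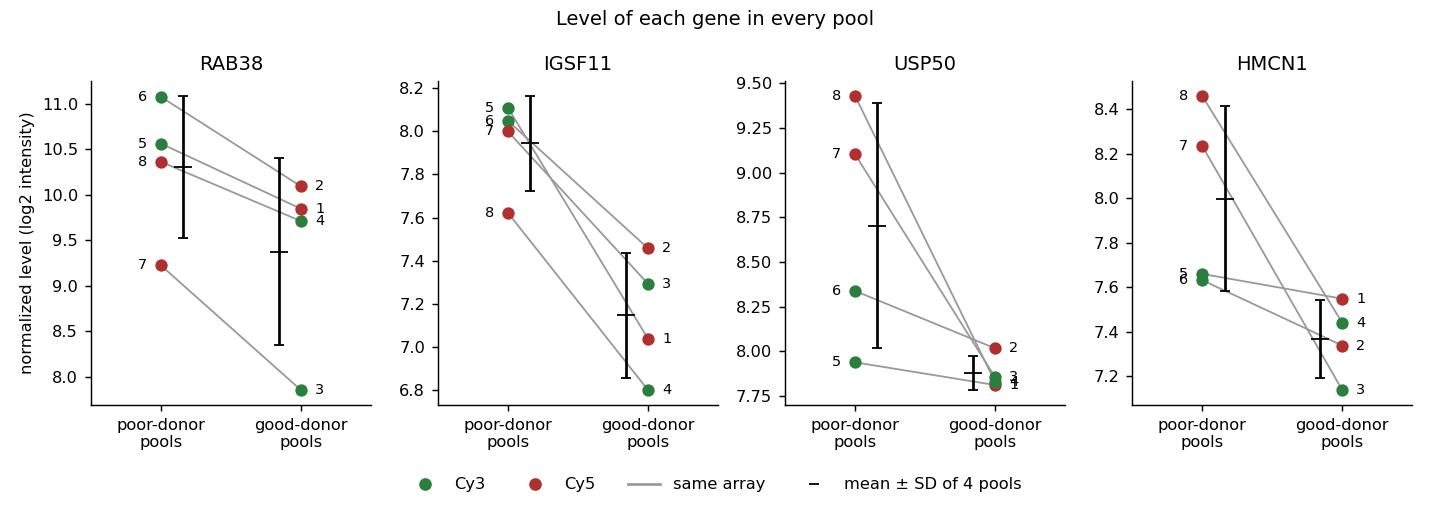
Normalized log2 level of each gene in the 4 poor-donor pools (left) and the 4 good-donor pools (right), numbered by pool and coloured by dye, with grey lines joining the pools of 1 array and bars for mean ± SD. Every line falls to the right, the groups of IGSF11 and HMCN1 do not overlap, and pools 7 and 8 carry the high values of USP50 and HMCN1.

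The ratios were uneven across arrays in USP50 and HMCN1, and varied less in RAB38 and IGSF11. The SD over the 4 arrays was 0.20 for the median tested probe, and that of IGSF11 exceeded 51.3% of tested probes, RAB38 78.2%, HMCN1 92.4% and USP50 97.0%. In USP50 the mean ratio was 1.43 on arrays 3 and 4 against 0.22 on arrays 1 and 2, and in HMCN1 it was 1.06 against 0.20. The difference between the array pairs was 1.20 in USP50 and 0.86 in HMCN1, against 0.16 in RAB38 and -0.07 in IGSF11, where the median size over all tested probes was 0.19. Arrays 3 and 4 carried the poor-donor pools in Cy5, so dye and pool cannot be told apart among the poor-donor pools. The good-donor pools, which were also split between dyes, differed by 0.07 in USP50 and 0.15 in HMCN1 (mean of Cy5 pools minus mean of Cy3 pools, log2). The same difference among the poor-donor pools was 1.13 in USP50 and 0.70 in HMCN1.

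Pools of the same dye can also be set side by side across arrays. These differences are made from the levels behind the ratios that chose the genes, and the mean over the 2 dyes equals the mean ratio, so only their split between dyes adds to the description. In Cy3, poor-donor pools 5 and 6 stood above good-donor pools 3 and 4 by a mean of 2.04 in RAB38, 1.03 in IGSF11, 0.30 in USP50 and 0.36 in HMCN1 (log2). In Cy5, poor-donor pools 7 and 8 stood above good-donor pools 1 and 2 by 0.56 in IGSF11, 1.35 in USP50 and 0.90 in HMCN1. RAB38 did not, with a difference of -0.17 in Cy5. The direction of RAB38 thus held between the 2 pools of each array but not between the Cy5 pools of different arrays.

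All 4 probes were above background in all 8 pools, where background is the mean of 153 negative control spots plus 2 SD in the same channel. RAB38 had raw intensities 21.1, 28.6, 9.13 and 23.6 times the mean of the negative controls in poor-donor pools 5 to 8, against 16.7, 19.7, 3.03 and 11.4 times in good-donor pools 1 to 4. For IGSF11 these were 3.91, 3.64, 3.81 and 3.20 times in poor-donor pools, against 2.04, 2.80, 2.12 and 1.61 times in good-donor pools. Good-donor pool 4, the dimmest reading of IGSF11, was still 10.7 SD above the negative controls. USP50 had 3.49, 4.50, 8.33 and 12.2 times in poor-donor pools and 3.71, 4.32, 3.04 and 3.14 times in good-donor pools. On array 1 the raw multiple of USP50 was thus higher in the good-donor pool. HMCN1 had 2.92, 2.73, 4.50 and 5.96 times in poor-donor pools and 3.02, 2.49, 1.89 and 2.40 times in good-donor pools, with good-donor pool 1 above poor-donor pool 5 on this raw scale.

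**Figure D2:**
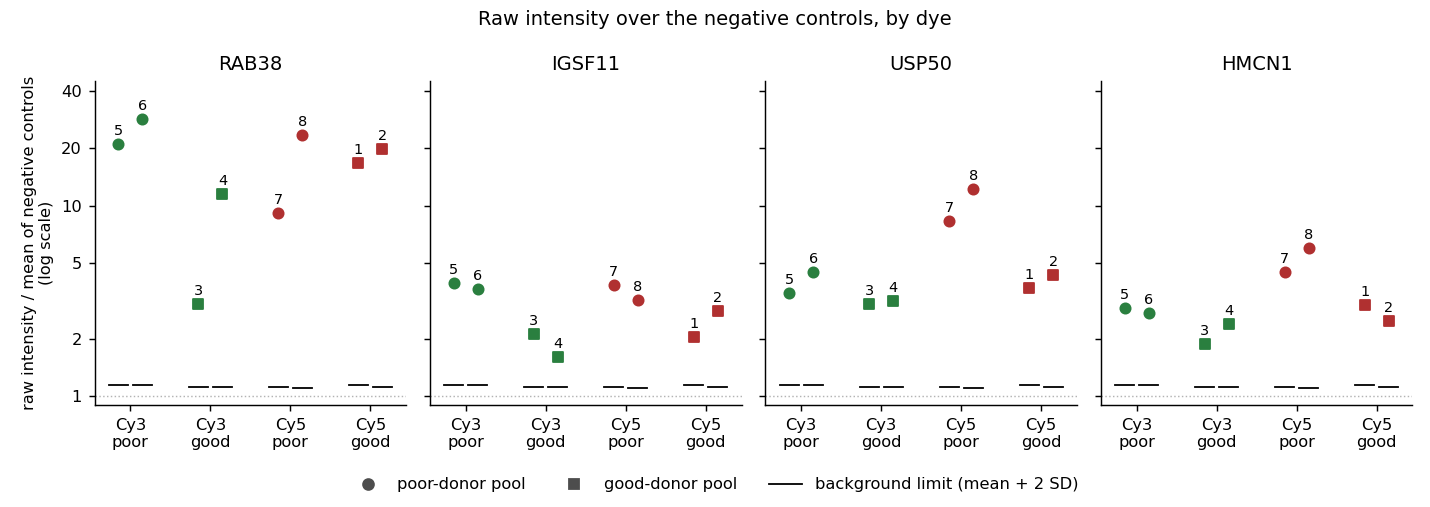
Raw spot intensity divided by the mean of the negative controls of the same channel (log axis) for each gene, with poor-donor pools (circles) left of good-donor pools (squares) within each dye and numbers giving the pool. All points lie above the background limit drawn as a short line, and RAB38 in good-donor pool 3 is far below its other readings.

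The log2 ratios that the authors deposited gave a mean of 0.97 for RAB38, 0.93 for IGSF11, 0.89 for USP50 and 0.72 for HMCN1, and all were above 0 on all 4 arrays. They come from the same spots, so they bear on the processing and not on the pools. Set against ratios made here by plain subtraction of the local background and loess, they correlated at r = 0.99991 or more over the tested probes of each array, with a median difference of at most 0.0029. Against the normexp ratios the correlation was 0.984 to 0.993 with slopes of 1.09 to 1.14. The largest departures between deposited and normexp ratios were 0.14 in RAB38 and USP50 and 0.18 in IGSF11 and HMCN1. Median centring in place of loess narrowed the contrast between the array pairs, to 0.30 and 0.49 against 0.85 and 0.85 for HMCN1 on arrays 1 to 4, and to 0.33 and 0.57 against 0.93 and 1.40 for USP50. With mean in place of median spot intensities IGSF11 had 0.50, HMCN1 0.38, USP50 0.65 and RAB38 0.82, so that IGSF11 and HMCN1 were then under 1.5-fold.

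**Figure D3:**
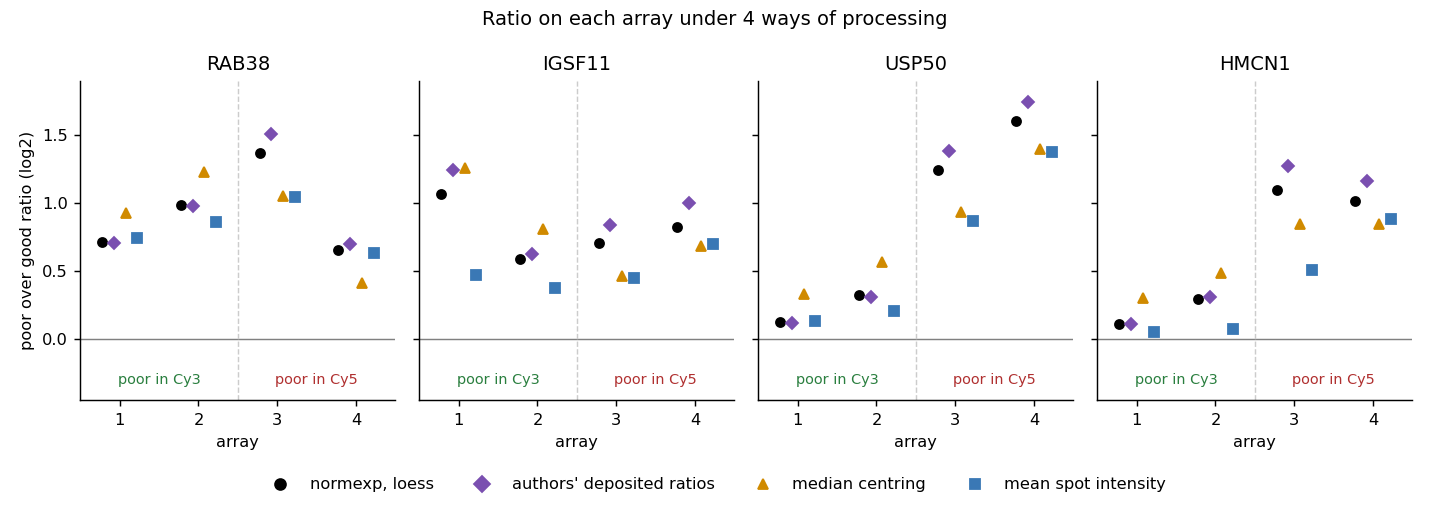
Poor over good log2 ratio of each gene on arrays 1 to 4 from normexp and loess, from the authors' deposited table, with median centring and with mean spot intensity. All points lie above 0, and those of USP50 and HMCN1 are higher on arrays 3 and 4, where the poor-donor pools were in Cy5.

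Among the 620 named genes with a ratio above 0 on all 4 arrays (5.65% of named genes), RAB38 and IGSF11 had the highest lowest-array ratios, 0.65 and 0.59. The next was CCNB1IP1, which encodes a cyclin B1-interacting ubiquitin ligase, at 0.41. USP50 ranked 93 and HMCN1 124 by this measure, but 3 and 8 by mean ratio. HMCN1, with 0.11 on array 1, had the smallest lowest-array ratio of the 6 genes of the narrower choice. LUM, the collagen-binding proteoglycan lumican, also met the narrower choice without being one of the 4 genes, with 0.17 on array 1. So did LOC782977, with 0.43, 0.18, 1.48 and 0.40 on arrays 1 to 4. CARTPT, which encodes the CART peptide, lay outside because of -0.30 on array 4, with 1.22, 1.40 and 1.12 on arrays 1 to 3.

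Of 39 genes of Rab32/38 and lysosome-related organelle traffic with a probe, 35 were tested, 0 passed the adjusted threshold and 1 had an unadjusted p under 0.05, against 6.97% of all named genes. Their median ratio was 0.03, against 0.0008 over all named genes, and 3 were above 0 on all 4 arrays, or 8.57% against 5.65% of all named genes. RAB32 had ratios of 0.07, -0.23, 0.45 and -0.35 in array order, averaging -0.02 ± 0.36 (SD, n = 4). HPS1 and HPS4, the exchange factor of RAB38, had means of 0.13 ± 0.10 and 0.20 ± 0.31, with HPS1 above 0 on all arrays and HPS4 on 3. BLOC1S6, a subunit of a complex that sorts cargo to these organelles, had 0.31 ± 0.15, and a second probe gave 0.16. LAMP2, a lysosomal membrane protein, had 0.17 ± 0.08. AP3M1, of the AP-3 sorting adaptor, had -0.13 ± 0.09 and was below 0 on all arrays, while its other probes ranged from -0.06 to 0.40.

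Other ubiquitin-specific proteases and USP50-linked genes were tested for 40 of 46 with a probe, of which 0 passed the adjusted threshold, with a median of -0.04. At an unadjusted p under 0.05 there were 1 higher and 3 lower genes, 4 of 40 where the share over all named genes was 6.97%. USP21 was the 1 gene above 0 on all 4 arrays, at 0.26 ± 0.06 (SD, n = 4), where 5.65% of all named genes were. Below 0 on all 4 arrays were 6, where the share of all named genes was 6.05%. The lowest of these were USP54 at -0.25 ± 0.17, USP22, which acts in a chromatin-modifying complex, at -0.23 ± 0.17 and USP20 at -0.18 ± 0.07. USP8, which acts on receptors at endosomes, had -0.19 ± 0.25.

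For IGSF11, 22 of 28 related adhesion genes and partners with a probe were tested, with a median of -0.05 and a range from -0.23 to 0.19. Of the 22, 0 were above 0 on all 4 arrays (5.65% of all named genes), and 0 passed the adjusted (0%) or the unadjusted threshold of 0.05 in limma (6.97%). GPA33, a surface glycoprotein of the same structural group, was the 1 gene below 0 on all arrays (6.05% of all named genes), at -0.14 ± 0.15 (SD, n = 4). For HMCN1, 27 of 35 genes of fibulins and basement membrane with a probe were tested, with a median of 0.004. There were 0 adjusted calls and 1 unadjusted, where the share of all named genes was 6.97%. Their range was -0.35 for FBLN1, fibulin 1, to 0.42 for LAMB1, a laminin chain. Of these genes 0 had the same sign on every array, where 5.65% of all named genes were above 0 on all and 6.05% below. Averaged over the list, arrays 1 to 4 gave -0.23, -0.10, 0.46 and -0.10, so the list was high on array 3 but not on array 4, where HMCN1 was high on both.

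**Figure D4:**
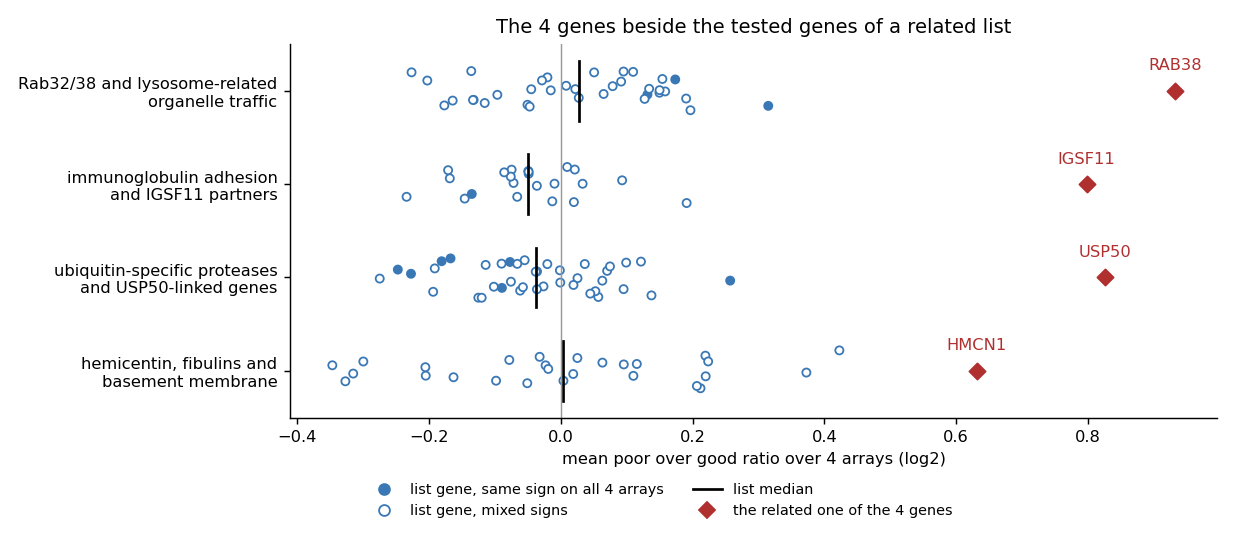
Mean poor over good log2 ratio over 4 arrays for the tested genes of the 4 related lists (circles, filled where the sign was the same on all arrays), the list median (line) and the related one of RAB38, IGSF11, USP50 and HMCN1 (diamond). The list medians lie between -0.05 and 0.03, and no list gene reaches the gene it is set beside, whose place on the plot follows from how it was chosen.

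Lists of genes used as markers of other cells also had mean levels that differed between pools. Which cells this RNA came from was not tested. Theca and stroma markers were tested for 12 of 14 genes, with mean log2 levels of 8.92 to 9.62 in poor-donor pools and 8.41 to 9.54 in good-donor pools. Their mean ratio was -0.35, 0.73, 1.14 and -0.07 on arrays 1 to 4, and the median over genes was 0.31. COL1A1, COL3A1 and LUM, 3 of the 12 (25%, against 5.65% of all named genes), were above 0 on all 4 arrays. Their means were 0.46 ± 0.27, 0.37 ± 0.33 and 1.85 ± 1.25 (SD, n = 4). By mean ratio 8 of the 12 were above 0. The others, CYP17A1, INSL3, NR2F2 and THY1, had -0.004, -0.02, -0.09 and -0.11. CYP17A1 was dim, at a mean log2 level of 6.45 in poor and in good donors, and INSL3 was at 6.99 and 7.02. The median tested probe was at 7.26. STAR had the widest ratios of the list, at -2.51, 2.27, 4.25 and -1.14 on arrays 1 to 4. At an unadjusted p under 0.05 (6.97% of all named genes), 2 genes of the list, COL1A1 and LUM, were higher and 0 lower. Surface and oviduct-type epithelial markers, tested for 10 of 11 genes, ranged from 9.01 to 9.39 in poor-donor pools and from 8.00 to 9.86 in good-donor pools. Their mean ratios were -0.84, -0.26, 1.00 and 0.18, and few genes carried the wide ones. KRT8 and KRT18 had 4.39 and 4.31 on array 3, where the other tested genes lay between -0.29 and 0.50. OVGP1 had -4.54 on array 1, where the others lay between -1.86 and 0.12. By mean ratio 4 of the 10 were above 0. The lowest value of the theca and of the epithelial list was in good-donor pool 3, the pool in which RAB38 was lowest. That pool also held the lowest values of the hemicentin, adhesion and endothelial lists, at 8.10, 7.32 and 6.57. Other lists were not low there. Leukocyte markers had their highest good-donor value in this pool, at 7.67, and oocyte markers their highest of all pools, at 6.75. Granulosa markers were at 11.34, inside their good-donor range. In poor-donor pool 7, where RAB38 was lowest of its group, theca and stroma markers were at 9.55, and their lowest poor-donor value was in pool 8. Epithelial markers were at 9.01 in pool 7, their lowest poor-donor value. Leukocyte markers, tested for 11 of 13, ranged from 7.13 to 7.68 in poor-donor and from 7.14 to 7.67 in good-donor pools, with mean ratios of 0.12, 0.50, -0.54 and -0.01 on arrays 1 to 4.

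Of the melanocyte markers 4 of 8 were tested, at 6.54 to 6.82 in poor-donor and 6.54 to 6.68 in good-donor pools, and TYR and MLANA were among those below the limit for testing. TYRP1 and SLC45A2, which act in melanin synthesis, were above 0 on all 4 arrays (50% of the 4 tested, against 5.65% of all named genes). Their means were 0.11 ± 0.10 and 0.16 ± 0.18 (SD, n = 4), at mean log2 levels of 6.44 to 6.60. DCT averaged -0.04 ± 0.10 and PMEL 0.11 ± 0.32, both with mixed signs. The median of the 4 tested was 0.11. Endothelial markers (5 of 8 tested) had mean levels of 6.62 to 6.90 in poor-donor and 6.57 to 6.84 in good-donor pools. Oocyte markers (3 of 8 tested) had 6.57 to 6.71 in poor-donor and 6.60 to 6.75 in good-donor pools. No list had a gene past the adjusted threshold. The part of these cells in the ratios of the 4 genes was not tested.

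Over the 8 pools, after the mean of each dye was removed from every probe, USP50 and HMCN1 had the most similar profiles of any pair among the 4 (Pearson's r = 0.91, n = 8 pools), and HMCN1 ranked 17 among all named genes for USP50. The other pairs lay between 0.18 for RAB38 with USP50 and 0.56 for IGSF11 with USP50. These coefficients are descriptions, since pools share arrays in pairs and the genes were chosen for a common direction.

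The genes most like RAB38 were TSPAN14, a tetraspanin (r = 0.99), MRPL49 of the mitochondrial ribosome (0.98), MYO9B, a myosin (0.97), BET1L, a Golgi SNARE (0.97), and MSH6, a DNA mismatch repair protein (0.96). All 5 were lowest in good-donor pool 3, as RAB38 was, which follows largely from their choice by correlation with it. Their mean ratios were 0.10 to 0.28. For IGSF11 they were SEC14L2, a lipid-binding protein (0.98), LPP of focal adhesions (0.95), GNAI1, an inhibitory G protein subunit (0.95), TCP1 of a cytosolic chaperonin (0.94) and the RNA-binding HNRNPC (0.94). LPP and GNAI1 were above background in 3 of the 4 good-donor pools.

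The genes most like USP50 were MRPS5 of the mitochondrial ribosome (r = 0.99), CNN3, an actin-binding calponin (0.97), TTLL3, a tubulin-modifying enzyme (0.97), PCK2, the mitochondrial phosphoenolpyruvate carboxykinase (0.95), and the receptor GPR31 (0.95). For HMCN1 they were SIRT5, a mitochondrial deacylase (0.96), TTLL3 (0.96), MROH1 (0.95), MTMR3, a lipid phosphatase (0.95), and PHF10 of a chromatin-remodelling complex (0.95). TTLL3 stood in both sets, with ratios of -0.06, 0.00, 0.60 and 0.67 on arrays 1 to 4. SIRT5 had nearly the same ratio on every array, at 0.39 ± 0.05 (SD, n = 4). Removing the dye means also takes out the difference between the array pairs. MRPS5 thus had ratios of 0.33, 0.36, 0.12 and 0.24 and GPR31 of 0.19, 0.15, -0.03 and -0.01, unlike USP50. Without the removal, r with USP50 was 0.68 for MRPS5 and 0.32 for GPR31, and 0.92 to 0.96 for CNN3, TTLL3 and PCK2. In that setting 2 of the 5 genes remained among the nearest for RAB38, USP50 and HMCN1 and 1 for IGSF11.

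**Figure D5:**
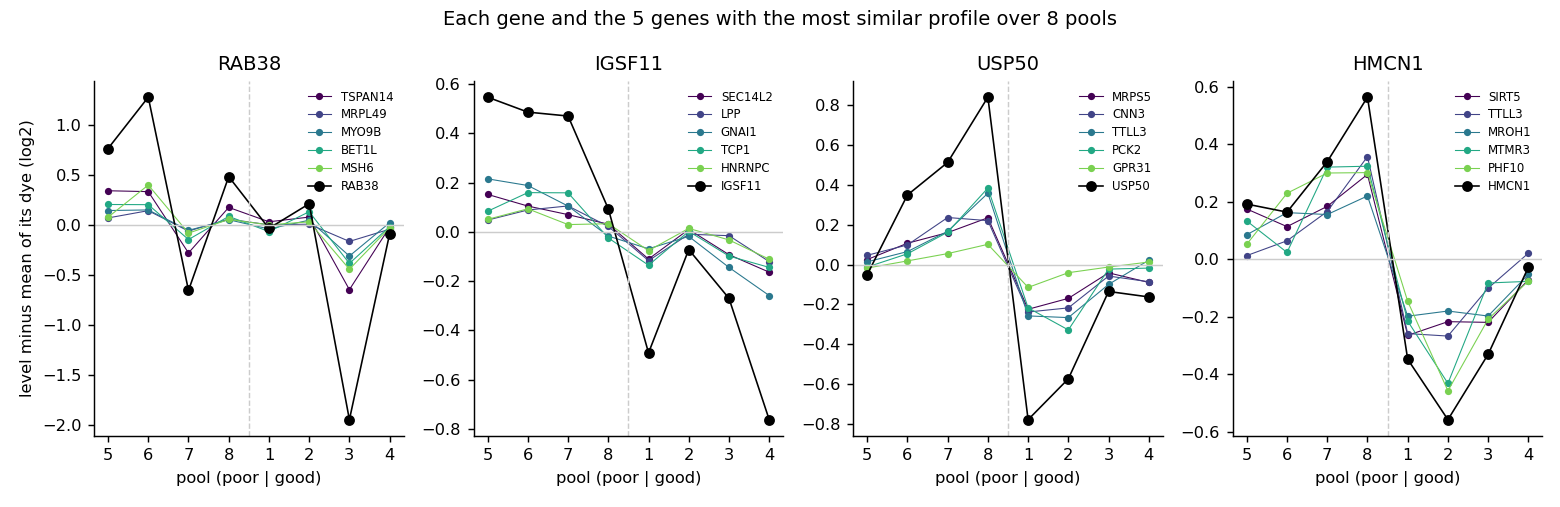
Log2 level minus the probe's mean within its dye for each gene (black) and the 5 genes of highest Pearson correlation with it, in poor-donor pools 5 to 8 and good-donor pools 1 to 4. Lines only join the points of 1 gene, and the swing of the named gene is wider than that of its companions in all 4 panels.

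The 4 genes lie on 4 different chromosomes in the ARS-UCD2.0 annotation. Positions are left out, since the genome version of the probes was not stated. Of the 16 nearest named protein-coding genes, 2 on each side of each gene, 10 were tested, with a median ratio of 0.02. In limma they had 0 adjusted calls, and 1 had an unadjusted p under 0.05, where 6.97% of all named genes did. None was above 0 on all 4 arrays, where 5.65% of all named genes were. CTSC, which encodes the lysosomal protease cathepsin C and lies next to RAB38, had 0.37, 1.05, 0.43 and -0.19 in array order, averaging 0.42 ± 0.51 (SD, n = 4). PRG4, the gene for lubricin next to HMCN1, was the 1 neighbour below 0 on all arrays (6.05% of all named genes), at -0.15 ± 0.05. USP8 lies next to USP50 and had the opposite sign of its mean.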

How the data were processed

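Granulosa cell RNA pools were read on 4 two-colour arrays, 4 areas of 1 slide. The deposited scanner tables give an intensity for each spot and for its surroundings at both wavelengths, not normalized, per the file headers. The authors also deposited a log2 ratio per probe, made by steps that are not stated in the labels. That table's medians lay between -9.92e-05 and 0.0026 on the 4 arrays, it ran as poor over good, and it served as an alternative. The build behind the probes was not stated either.

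Median spot intensities were corrected with normexp (limma 3.58.1, R 4.3.3, offset 50) and normalized by loess within arrays (span 0.3, control spots at weight 0). Levels per pool were taken after Aquantile scaling between arrays. Probes above the negative controls' mean by 2 SD in all 4 pools of a donor group were tested, 26181 of 43794. Limma fitted the poor over good ratio with a dye term, with Benjamini-Hochberg adjustment over these probes. The fit was tested on simulated data.

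Platform symbols, 1 for each of 21790 probes, were current in ARS-UCD2.0 for 20025, updated for 1567 and kept as given for 198. A gene was represented by its brightest tested probe, which gave 10976 genes. Profiles were compared by Pearson correlation over 8 pools after each probe's mean within a dye was removed. For each of the 4 genes the 5 most similar were named. From the related lists the 3 highest and 3 lowest with 1 sign on all arrays were named, with RAB32, HPS1, HPS4, USP8 and HMCN2, the last not analysed here. Genomic neighbours were added after the data had been seen. The 4 genes and the lists were chosen with earlier results of these data known. The number of arrays limits the precision. Alternatives were 2 other background corrections, median centring, mean spot intensities, the deposited ratios, 2 other filters on dim probes, no dye term, each array left out and, for profiles, no dye centring.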

Additional observations from a re-analysis of the deposited data

Results flagged for a closer look

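The level of RAB38 in the good-donor pools was marked by a single low pool. Good-donor pool 3 had 7.85 on the log2 scale, while the other 3 good-donor pools had 9.71 to 10.09, and the gap to the nearest pool was 0.830 of the whole range, just above Dixon's 95% critical value for 4 values. Poor-donor pool 7 on the same array was also the lowest of its group, at 9.22. Without array 3 the RAB38 ratio fitted with the dye term was 0.75. Over the 4 genes 12 sets of 4 values were checked and 1 was marked, where chance marks about 1 in 20.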

How the results depend on the processing

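The ratios of the 4 genes were above 0 on every array used in all 36 alternatives run for them. Of these, 20 used all 4 arrays and the same spots on which the genes were chosen. Plain subtraction and the deposited ratios, which were nearly equal, were counted apart among the 20. The remaining alternatives left out 1 array, so the sign on the arrays left follows from how the genes were chosen. Their fitted values also cannot move by 1 SD between arrays. Of the 36, 35 moved by less than 1 SD. The exception was IGSF11 with mean spot intensities, at 0.50. The SD was each gene's own between arrays, which was wide for USP50, at 0.71, and HMCN1, at 0.50. HMCN1 thus went from 0.63 to 0.38 with mean spot intensities without counting as moved. Leaving out each array in turn gave fitted ratios, with the dye term, of 0.75 to 1.11 for RAB38 and 0.68 to 0.92 for IGSF11. For USP50 they were 0.74 to 0.91 and for HMCN1 0.59 to 0.68. In this fit the array left of a pair stands for the pair, so these are not means over 3 arrays. They do not show the difference between the array pairs, which was large in USP50 and HMCN1. The count of probes past the adjusted threshold in limma was 0 under every alternative, against 1560 at an unadjusted p under 0.05 as reported, and the smallest adjusted p ranged from 0.45 to 1.00. Probes at an unadjusted p under 0.05 and at least 1.5-fold higher numbered 13, and 31 with plain background subtraction, 21 with no background correction, 30 with the deposited ratios, 5 with mean spot intensities and 27 to 211 with an array left out. At least 1.5-fold lower probes numbered 72, 27 with mean spot intensities and 85 to 210 with an array left out. Probes above 0 on all arrays used numbered 1430, 957 with median centring, 1589 with mean spot intensities and 2632 to 3378 with 3 arrays. With 3 arrays fewer have to share a sign, and the cause of the other moves was not tested. No gene has another probe, so that alternative was not run. The fit is itself paired, since each ratio sets 2 pools of an array against each other. Of the 5 genes most like each, 3 to 5 remained with no background correction. With 4 arrays and 2 residual degrees of freedom, small differences cannot be told from the spread.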
